A study of Homo sapiens with 4 samples.

Results

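Of 60886 regions accessible in MCF10A cells or in their HRAS-transformed derivative, 1201 (1.97%) held the 9-base DNA site AACCNGGTT, a spaced form of the motif of grainyhead-like (GRHL) transcription factors, with at most 1 outer mismatch. These letters were almost as frequent beside the accessible regions as within them, and the set is defined by its letters alone. MCF10A cells, labelled Parental, are human breast epithelial cells that grow without limit but are not transformed. The transformed cells, called G12V and labelled H-RAS Gv12, are the same line after lentiviral transfer of an HRAS oncogene with the G12V change and hygromycin selection, and they were also given a GFP vector. ATAC-seq uses a transposase that cuts and tags DNA where it is open, and it gave 1 peak list for each of 4 libraries, 2 of MCF10A and 2 of G12V. The study calls the replicates biological, but all G12V cells derive from the transduced population, and in bulk ATAC-seq fewer cells with an open locus and a less open locus in each cell cannot be told apart. The question here is where such sites lie, in which libraries they were called, and whether their accessibility differed between the cell types.

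Regions were made by merging peaks of the 22 autosomes and X that overlapped by 1 bp or more. The site was sought on both strands of a 150 bp window placed at the midpoint of the region's highest-ranked peak. It reads AACCNGGTT, with at most 1 mismatch, allowed only in the outer A or T bases. The middle base was set as any but C, which had no effect, because C on one strand is G on the other: 64 regions held an exact site with or without that condition. The 1201 regions held 1221 sites. One site was found in 1182 regions, 2 in 18 and 3 in 1, and an exact site was found in 64. With 10 bases added on each side, all 1221 sites differed from each other in sequence.

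GRHL1, GRHL2 and GRHL3 bind DNA as dimers, each partner reading one arm of a short palindromic site. In surface epithelia they are known for maintaining cell junction genes such as CDH1, and GRHL2 and ZEB1, an inducer of epithelial-mesenchymal transition (EMT), are known to repress each other. The data hold no binding measurement, so a site is a match of letters only.

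The windows of the highest-ranked regions of each class show the site in its context. Bases are lower case, hg19, plus strand, 5′ to 3′, with the site in capitals. A region is gained if both G12V libraries and no MCF10A library had a peak in it, and lost in the opposite case. The names are those of the gene with the nearest transcription start site (TSS). The first 3 were called in all 4 libraries, the next 3 were gained and the next 3 lost, and the last shows 2 sites in 1 window.
DLG2, chr11:85195146-85195295: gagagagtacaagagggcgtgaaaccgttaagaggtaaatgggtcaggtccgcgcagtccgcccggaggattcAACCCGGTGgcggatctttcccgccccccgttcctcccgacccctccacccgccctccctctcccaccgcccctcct
ZNF672, chr1:249132939-249133088: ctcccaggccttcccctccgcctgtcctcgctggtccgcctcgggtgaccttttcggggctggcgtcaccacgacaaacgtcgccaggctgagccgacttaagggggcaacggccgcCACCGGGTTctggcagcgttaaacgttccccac
DUSP10, chr1:221915865-221916014: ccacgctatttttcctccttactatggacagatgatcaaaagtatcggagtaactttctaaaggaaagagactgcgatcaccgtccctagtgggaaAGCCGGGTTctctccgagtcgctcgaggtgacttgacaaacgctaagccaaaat
CLIC2, chrX:154543313-154543462: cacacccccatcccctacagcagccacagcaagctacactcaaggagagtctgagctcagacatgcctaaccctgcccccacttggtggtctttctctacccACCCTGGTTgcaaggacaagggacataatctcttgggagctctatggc
PHACTR1, chr6:12573584-12573733: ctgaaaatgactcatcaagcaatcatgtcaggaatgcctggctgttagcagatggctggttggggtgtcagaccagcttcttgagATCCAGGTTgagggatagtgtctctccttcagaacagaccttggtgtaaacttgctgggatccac
TM4SF20, chr2:228231882-228232031: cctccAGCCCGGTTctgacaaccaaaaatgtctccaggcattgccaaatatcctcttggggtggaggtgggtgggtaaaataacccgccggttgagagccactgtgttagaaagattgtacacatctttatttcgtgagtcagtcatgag
EDN1, chr6:12472999-12473148: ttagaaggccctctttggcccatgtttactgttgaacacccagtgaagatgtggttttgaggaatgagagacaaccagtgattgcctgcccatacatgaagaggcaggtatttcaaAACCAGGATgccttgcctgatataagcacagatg
LRRN1, chr3:3678528-3678677: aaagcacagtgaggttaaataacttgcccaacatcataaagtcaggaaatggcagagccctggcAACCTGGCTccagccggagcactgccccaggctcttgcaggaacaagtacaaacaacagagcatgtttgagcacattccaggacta
TMEM38B, chr9:108675289-108675438: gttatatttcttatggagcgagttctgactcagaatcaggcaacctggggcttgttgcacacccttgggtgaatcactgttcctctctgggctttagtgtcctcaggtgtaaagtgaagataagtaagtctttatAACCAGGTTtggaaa
BBX, chr3:107418770-107418919: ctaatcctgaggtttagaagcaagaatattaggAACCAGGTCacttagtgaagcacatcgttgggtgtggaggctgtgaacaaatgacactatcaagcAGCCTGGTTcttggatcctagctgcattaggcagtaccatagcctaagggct

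The sites differed in spelling. Read on the strand where the middle base is T or G, the most frequent words were AGCCTGGTT at 113 places, AACCTGGCT at 104 and AACCTGGGT at 92. The exact words were AACCTGGTT at 50 places and AACCGGGTT at 14. The word CACCTGGTT, at 85 places, holds CACCTG, the E-box known as a target of the ZEB and SNAI repressors, so that at these places the 2 motifs share letters.

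The middle base divided the members by place. An A or T stood in the middle of 960 sites in 950 regions, of which 87 (9.16%, 95% Wilson interval 7.48 to 11.2) were at promoters, here the stretch that begins 1000 bp before a protein-coding TSS and ends 500 bp after it. A C or G stood in the middle of 261 sites in 254 regions, of which 103 (40.6%, 34.7 to 46.7) were at promoters. The median distance to a TSS was 55584 bp in the first set and 4385 bp in the second. Regions with a C or G in the middle were also more often called in all 4 libraries, at 19.3% against 6.95%. The base composition of the windows moved with this split, with a median GC content of 61.3% against 48.7%, and its part in the difference was not tested.

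**Figure D1:**
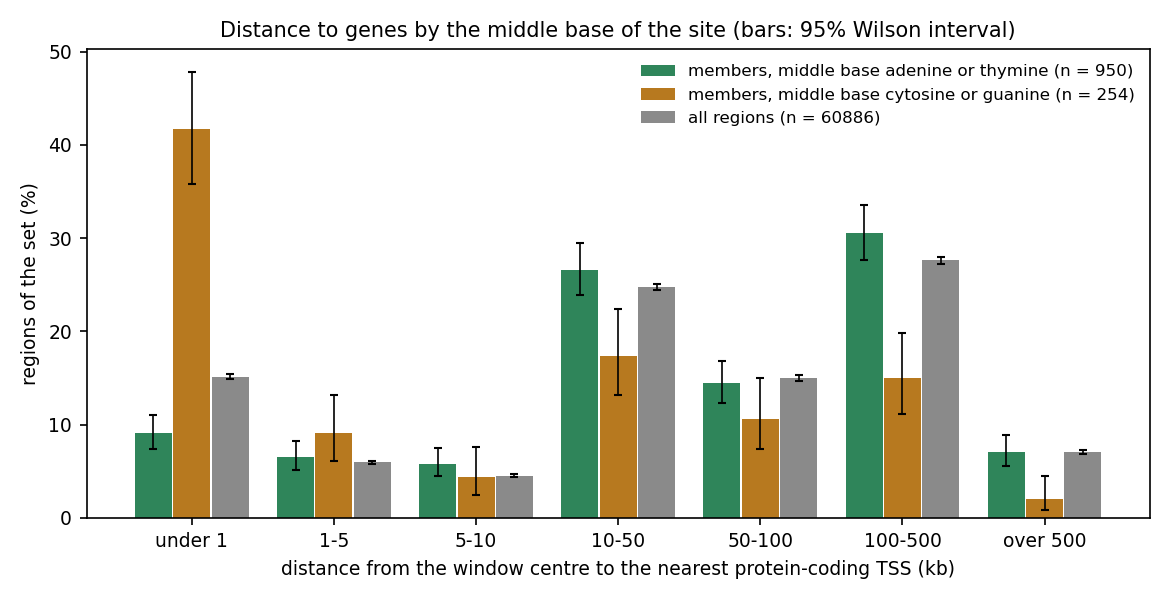
Share of regions (y axis, percent) in each band of distance from the window centre to the nearest protein-coding TSS (x axis, kb), for regions whose site has A or T in the middle, for those with C or G in the middle, and for all 60886 regions. Bars end at the share and error bars are 95% Wilson intervals. Within 1 kb lay 41.7% of the regions with C or G in the middle, 9.05% of those with A or T and 15.1% of all regions.

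The label of a grainyhead motif was checked by asking whether the sites gather at the middle of accessible regions. The 9-base site was found at 21.1 places per 1000 regions in the central 150 bp and at 19.6 per 1000 in an equal length of the flanks, from 500 to 1000 bp away. The ratio was 1.08 (95% exact interval 1.01 to 1.14). For the exact site it was 0.993 (0.761 to 1.28), at promoters 0.948 (0.815 to 1.10) and away from them 1.10 (1.03 to 1.18). These intervals cover counting error only.

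AP-1, the FOS and JUN dimer that binds TGACTCA or TGAGTCA, was the contrast in the same regions. Its letters stood at 178 places per 1000 regions in the centre and 26.5 in the flanks, a ratio of 6.72 (6.54 to 6.90). The letters GGAATG of the TEAD factors gave 1.38 (1.35 to 1.41). The 8-base palindrome AACCGGTT has the same arms with no base between them, and which of both forms represents grainyhead binding better cannot be told from these data. It gave 1.54 (1.37 to 1.73) with at most 1 outer mismatch. With that mismatch allowed, the palindrome was present in 354 regions, 35.9% of them at promoters. The exact letters were in 28 regions. The 9-base arms written backwards, CCAANTTGG, gave 0.612 (0.585 to 0.641), and the same reversal of the 8-base palindrome gave 1.42 (1.35 to 1.49). The reversed 8-base letters rose most at promoters, with 2.30 (2.06 to 2.56) against 1.28 (1.21 to 1.35) away from them. They may therefore not be neutral letters, and this contrast cannot show whether 1.54 is unusual. The 9-base site itself was found almost as often beside accessible regions as inside them. The regions are described below by the letters they hold, not as bound or grainyhead-dependent elements.

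The AP-1 letters also showed that the peak midpoints are displaced. Within 300 bp of the midpoints of each library's own peaks, the median position of AP-1 was -66 bp in MCF10A replicate 1, -66 bp in MCF10A replicate 2, -64 bp in G12V replicate 1 and -63 bp in G12V replicate 2, negative values being lower coordinates. Between 69.9% and 71.4% of the matches lay on that side. With the window moved by 75 bp in that direction, a choice made after this was seen, the AP-1 ratio was 8.12 (7.92 to 8.33), that of the 8-base palindrome 1.70 (1.52 to 1.89) and that of the 9-base site 1.04 (0.978 to 1.10). The moved window held the 9-base site in 1163 regions, of which 572 were members, 47.6% of the members and 49.2% of the moved set.

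**Figure D2:**
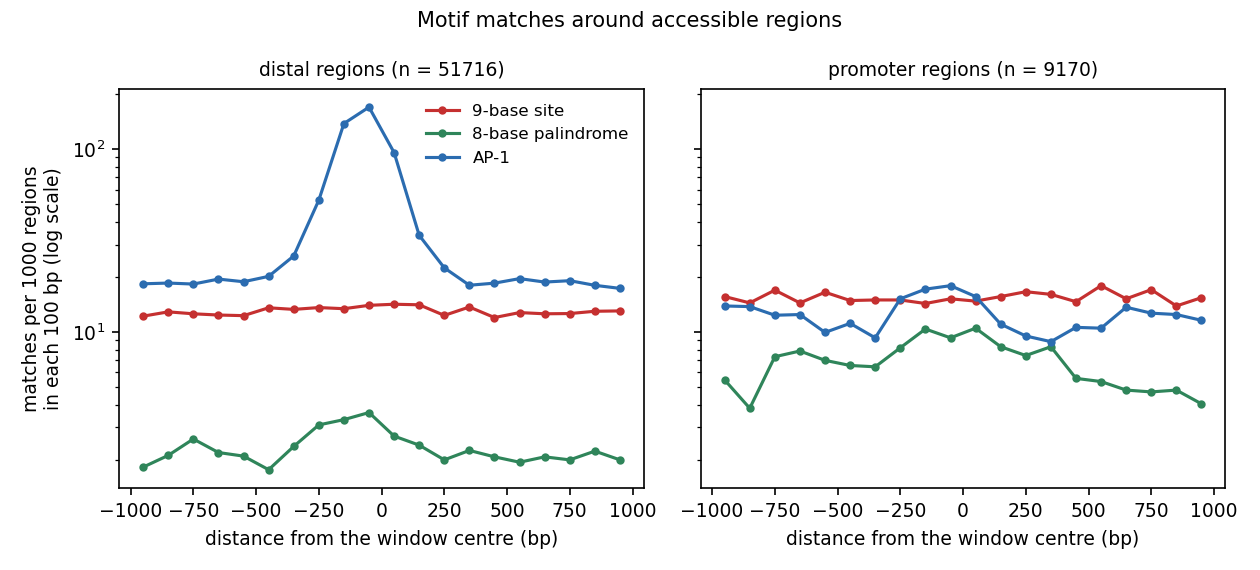
Matches per 1000 regions in each 100 bp (y axis, log scale) by distance from the window centre (x axis, bp; negative values are lower coordinates), for the 9-base site, the 8-base palindrome and AP-1, in the 51716 distal and the 9170 promoter regions. Matches of the 9-base site and of the palindrome have at most 1 outer mismatch. The 9-base line stays level across both panels. AP-1 peaks below 0 in distal regions, and the 8-base palindrome rises near the centre in both.

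Members were called in 1 to 4 libraries in shares close to those of accessible regions in general. The lists differed in length and held 12902 peaks in MCF10A replicate 1, 34484 in MCF10A replicate 2, 14057 in G12V replicate 1 and 46698 in G12V replicate 2. The lists give no read counts, so the depth of the libraries is unknown and a region without a peak may lie just under the caller's threshold. Of the 1201 members, 675 (56.2%) were called in 1 library, against 56.4% of all regions. Of those, 382 were called in G12V replicate 2 alone (31.8% of members, against 34.6% of all regions). A further 224 were called in MCF10A replicate 2 alone (18.7%, against 15.8% of all regions). All 4 libraries called 115 members (9.58%, against 8.36% of all regions).

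The share of called regions that held the site was slightly higher in MCF10A. It was 2.16% in MCF10A replicate 1 (266 of 12294 regions, Wilson interval 1.92 to 2.44) and 2.10% in replicate 2 (700 of 33311, 1.95 to 2.26). It was 1.94% in G12V replicate 1 (260 of 13431, 1.72 to 2.18) and 1.87% in replicate 2 (859 of 45966, 1.75 to 2.00). Both MCF10A libraries lay above both G12V libraries, but the intervals of all 4 overlap. The means were 2.13% ± 0.044 (SD, n = 2) and 1.90% ± 0.047 (SD, n = 2), a difference of G12V minus MCF10A of -0.230 percentage points. The exact two-sided permutation test gave p = 0.333, the smallest that 2 libraries against 2 can reach. With equally long lists of the 12888 best-scoring peaks the shares were 2.20%, 1.88%, 1.94% and 1.90% in the same order, so the groups then overlapped.

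Gained members numbered 34, or 2.83% of members, beside 3.2% of all regions that were gained. Lost members numbered 39, or 3.25% of members, beside 2.14% of all regions. Seen from the classes, 1.74% of the 1951 gained regions (Wilson interval 1.25 to 2.43) and 2.99% of the 1303 lost regions (2.20 to 4.07) held the site. How far the share among lost regions exceeded that among gained regions varied with the window and the list length. The share was 2.46% of lost against 1.90% of gained regions in the moved window and 2.21% against 1.68% with equally long lists. Among the better-scoring 50% of each list it was 1.92% against 1.77%. The backwards letters CCAANTTGG were in 2.92% of lost and 3.08% of gained regions. Against their own flanks the 9-base sites were more frequent in the centre of lost regions, with a ratio of 1.49 (1.03 to 2.11), than in that of gained regions, with 0.920 (0.634 to 1.30), and the moved window gave 1.23 (0.821 to 1.79) and 1.02 (0.716 to 1.42). The intervals of the classes overlap in both windows.

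**Figure D3:**
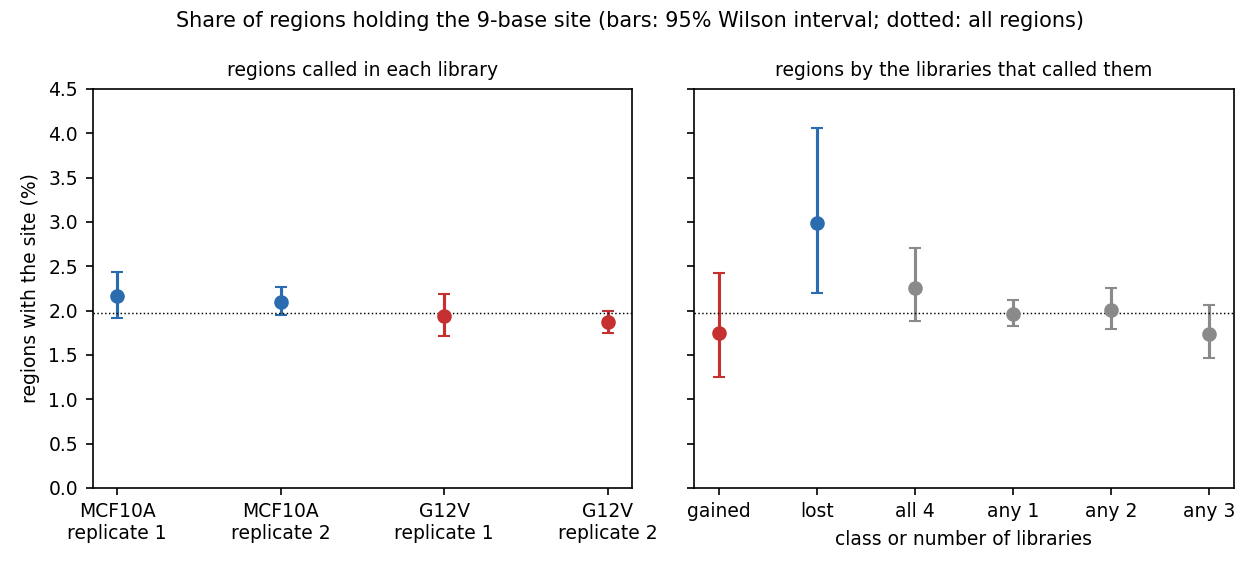
Share of regions holding the 9-base site (y axis, percent) among the regions called in each library (left) and among regions classed by the libraries that called them (right). Points are shares, bars are 95% Wilson intervals and the dotted line is the share over all regions, 1.97%. The interval of the lost regions, 2.20 to 4.07, lies above that line, and the 4 libraries lie between 1.87% and 2.16%.

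Other letters were also counted in the windows of lost and gained members, with no test. CACCTG was present in 11 of the 39 lost members (28.2%) and in 2 of the 34 gained members (5.88%), beside 18.3% of all lost, 7.89% of all gained and 11.4% of all regions. Among all 1201 members, 218 (18.2%) held CACCTG. The word CACCTGGTT, in which the site itself holds CACCTG, occurred at 4 places in lost and 2 places in gained members. AP-1 letters were in 9 lost (23.1%) and 8 gained members (23.5%), beside 18.3% and 16.0% of all lost and gained regions. A p53 site, sought with at most 3 mismatches outside its fixed C and G bases, was in 7.14% of all lost regions but in 0 of the 39 lost members. By the approximate rule that 0 allows up to 3 counts, which is not a Wilson bound, a share of up to 7.69% is possible. Over all members AP-1 was in 14.6%, beside 15.9% of all regions, and TEAD letters in 9.91%, beside 11.01%.

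The 6 members with the highest peak ranks in all 4 libraries came first. A rank is given as the percentile of the peak's score within its list. The region in an intron of DLG2, a scaffold gene of synapses (chr11:85195014-85195428), stood at 99.9 in MCF10A replicate 1, 99.97 in MCF10A replicate 2, 99.9 in G12V replicate 1 and 99.9 in G12V replicate 2. The promoter region of ZNF672, a zinc finger gene (chr1:249131546-249134208), stood at 99.9, 99.98, 99.9 and 99.96 in the same order. The promoter region of DUSP10 (chr1:221913738-221917282), a phosphatase that inactivates the kinases p38 and JNK, stood at 99.7, 99.6, 99.7 and 99.97. No library was low at these 3, and all of their sites have C or G in the middle. The DLG2 region was 415 bp long, beside a median of 1198 bp for members called in all 4 libraries. Whether its reads could also come from copies of this sequence elsewhere in the genome was not tested.

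The region shared by the divergent starts of SCLT1, a centriole protein gene, and C4orf33 (chr4:130013839-130015471) stood at 97.6, 97.9, 98.6 and 98.7. A region of 242 bp, chr9:44070694-44070935, stood at 99.9, 99.6, 99.8 and 98.5, and its nearest annotated start, BX088651.2, was 255249 bp away. The last, chr17:22023671-22024087, lay in the UTR of MTRNR2L1, a nuclear gene that resembles mitochondrial ribosomal RNA, and stood at 99.9, 99.6, 99.7 and 98.2. G12V replicate 2 was the lowest library at both of these last regions. How many of the reads at MTRNR2L1 came from mitochondrial DNA was not tested.

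Of the 34 gained members 2 (5.88%) were at promoters, beside 8.82% of all gained regions. The highest-ranked was in an intron of CLIC2, a chloride channel family gene (chrX:154542793-154543982), at percentiles 76.5 in G12V replicate 1 and 94.6 in replicate 2, with no peak in either MCF10A library. The intergenic region 142885 bp upstream of PHACTR1, a regulator of actin and protein phosphatase 1 (chr6:12573242-12574075), stood at 63.4 and 77.8, and its window also held AP-1 and TEAD letters. The region in an intron of TM4SF20 (chr2:228231408-228232506) stood at 62.4 and 94.7, with AP-1 letters near its edge. Replicate 2 was the higher at all 3 of these, whereas near DDIT4L, an inhibitor of mTOR signalling, replicate 1 was the higher, at 75.6 and 60.8. The fifth, 318699 bp upstream of PKIA, an inhibitor of protein kinase A, stood at 58.9 and 72.5.

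Of the 39 lost members 2 (5.13%) were at promoters, beside 6.45% of all lost regions, and they had a median TSS distance of 98808 bp, beside 71101 bp for all lost regions. The highest-ranked lay 182480 bp downstream of the start of EDN1, which encodes the peptide endothelin-1 (chr6:12472684-12473463), at percentiles 87.9 in MCF10A replicate 1 and 90.8 in replicate 2. It lies between EDN1 and PHACTR1, the same interval as the gained region named above. The region upstream of LRRN1, a leucine-rich repeat gene of neurons (chr3:3678301-3679071), stood at 89.2 and 86.3. The region near TMEM38B, a cation channel gene of the endoplasmic reticulum (chr9:108675004-108675776), stood at 79.6 and 79.4 and was 1 of 2 lost members with an exact site. Its window also held AP-1 and E-box letters. The regions near KCNU1, a potassium channel gene, and DEFB110, a defensin gene, stood at 78.1 and 80.4, and at 75.8 and 82.0. All 5 ranked at 75.8 or higher in both MCF10A libraries and had no peak in either G12V library.

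**Figure D4:**
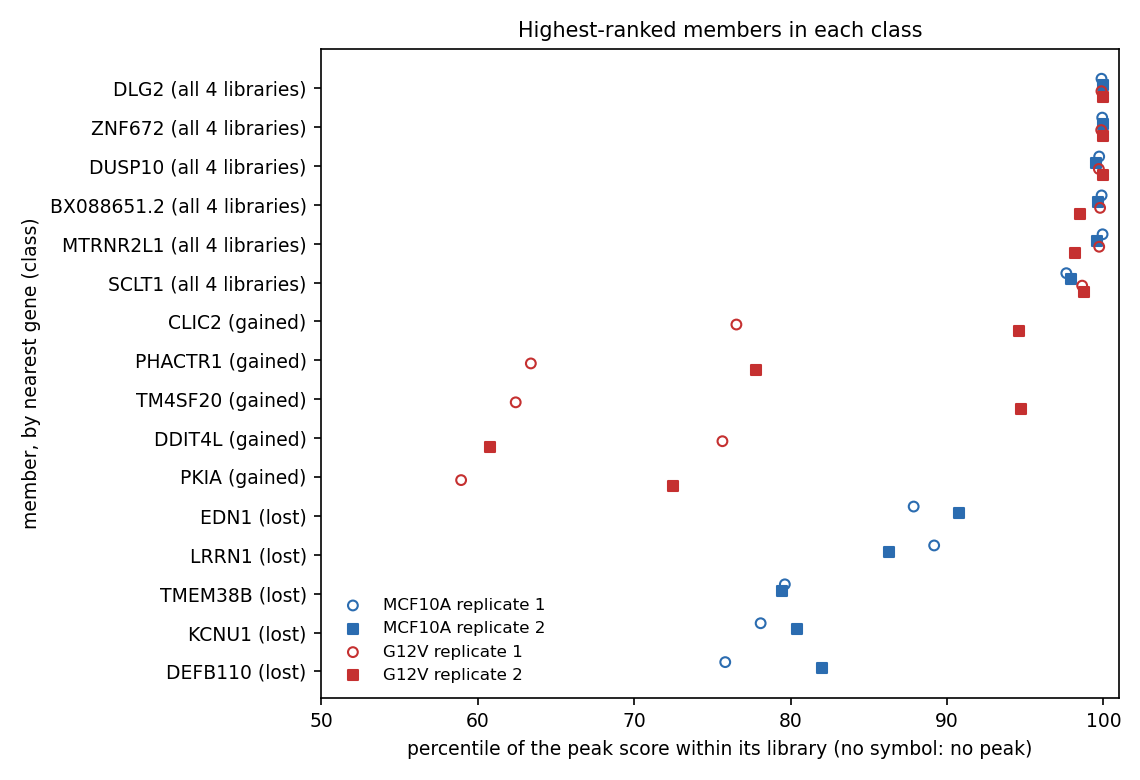
Percentile of the peak score within its library (x axis, 50 to 100) for the 6 members called in all 4 libraries, the 5 gained and the 5 lost members (y axis, nearest gene), 1 symbol per library and none where there was no peak. Members called in all 4 libraries lie above 97.6, gained members between 58.9 and 94.7, and lost members between 75.8 and 90.8.

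For the 115 members called in all 4 libraries, the peak scores could be compared as ranks, scaled to normal scores within each library and tested with limma over all 5090 regions called in all 4. Of these regions 0 (0%) passed an adjusted p of 0.05, and hence 0 members. With the replicate number as a block 6 regions passed, and still 0 members. At an unadjusted p under 0.05 there were 9 members (7.83%) and 346 regions in all (6.80%). The median difference, G12V minus MCF10A, was 0.09 normal-score units in members and -0.00319 in all regions, and 61 of the 115 members were higher in G12V. The smallest adjusted p by limma was 0.724 among members. Without G12V replicate 1, 3 regions passed and 1 of them was a member, in a fit where the lone G12V library is assumed to vary like the MCF10A libraries. The median standard error of a member's difference was 0.554 units, larger than the median size of the difference, 0.431, so the absence of calls does not show that scores were alike.

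**Figure D5:**
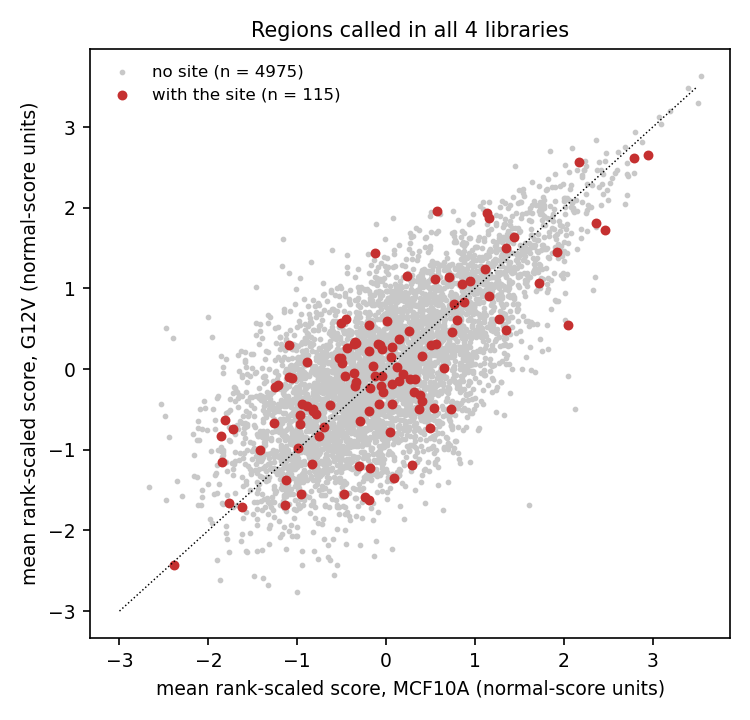
Mean rank-scaled peak score in the 2 G12V libraries (y axis) against that in the 2 MCF10A libraries (x axis), both in normal-score units, for the 5090 regions called in all 4 libraries. Each point is a region, the 115 with the site in red, and the dotted line marks equal scores. The members scatter on both sides of the line, with 61 above it.

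By place, members resembled accessible regions in general. Promoters held 189 (15.7%, Wilson interval 13.8 to 17.9), beside 15.1% of all regions. A further 612 (50.96%, beside 50.3%) lay within 100 kb of a TSS, and 400 (33.3%, beside 34.6%) lay farther. Among the members called in each library the promoter share was 27.1% in MCF10A replicate 1, 21.7% in MCF10A replicate 2, 31.5% in G12V replicate 1 and 18.5% in G12V replicate 2. The groups overlapped and the pairs of equal replicate number went opposite ways, by 4.47 and -3.20 points, with an exact two-sided permutation p of 1. Of the 9681 regions with AP-1 letters, 2.26% (1.98 to 2.58) were at promoters. Window GC content moved with the site, which was in 1.21% of regions in the lowest of 4 classes of GC content and in 2.03%, 2.47% and 2.23% in the next classes.

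Epithelial and EMT regulators, described grainyhead targets, and junction and keratin genes were taken from 6 lists of 86 genes, 85 of which were annotated. Only 1 of the lists, of 19 genes, is of described grainyhead targets. Of the 85 annotated genes of all 6 lists, 14 (16.5%, Wilson interval 10.1 to 25.8) had a member within 100 kb of their TSS. The same held for 2247 of all 20098 protein-coding genes (11.2%). The listed genes also had more accessible regions nearby, with a median of 7 against 5, and 2.43% of their pairs of gene and region were members, beside 2.10% over all genes. No listed gene had a gained or a lost member, and 2, EHF among them, had a member called in all 4 libraries. Over all 20098 genes these were rare as well, with a gained member near 60, a lost one near 84 and one called in all 4 libraries near 288. No member lay within 100 kb of GRHL1, GRHL2 or GRHL3 themselves, although 6, 11 and 7 accessible regions did. A peak covered a GRHL1 promoter in both replicate 2 libraries and a GRHL2 promoter in every library but G12V replicate 1, and no library had one at GRHL3.

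Among epithelial regulators, 4 of 15 genes had a member, among them the ETS factor genes ELF3 and EHF, and TFAP2A. The ELF3 region (chr1:201998289-201998875) was called in MCF10A replicate 2 alone, at percentile 1.80, near the bottom of that list. The EHF region, in an intron (chr11:34675233-34677599), stood at percentile 30.9 in MCF10A replicate 1, 72.7 in MCF10A replicate 2, 57.1 in G12V replicate 1 and 84.7 in G12V replicate 2, so both replicate 2 libraries lay above both replicate 1 libraries. The TFAP2A region (chr6:10347878-10348609) had peaks only in the replicate 2 libraries, at 47.5 in MCF10A and 63.8 in G12V. Near KLF4, an exact site lay 551317 bp from the gene in a region called only in MCF10A replicate 2, at 13.6.

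Among EMT regulators, 1 of 7 genes, ZEB1, had members. Both were at its promoter (chr10:31607199-31607697 and chr10:31607909-31608333), and both were called in MCF10A replicate 2 alone, at percentiles 29.5 and 19.01. The second site is CACCTGGTT, which holds the E-box. The region nearest to TWIST1, within HDAC9, was called only in G12V replicate 2, at 11.1.

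Among 19 described grainyhead targets, CDH1, CLDN7, ST14 and MAL2 had a member. The CDH1 region, in an intron 912 bp from the start of this E-cadherin gene (chr16:68771902-68772312), was called in MCF10A replicate 2 alone, at percentile 7.30, near the bottom of that list. The region 35475 bp upstream of ST14, which encodes the protease matriptase, lay in an intron of APLP2 and stood at 47.1 in MCF10A replicate 2 and 88.5 in G12V replicate 2. The intronic region of MAL2, a membrane trafficking gene, was called in G12V replicate 2 alone, at 46.3.

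Among junction genes, 2 of 11 tight junction genes, TJP3 among them, and 3 of 18 desmosome and hemidesmosome genes, DSG2, DSG3 and DST, had a member, and of 15 keratin and cornified envelope genes 0 had one (Wilson upper bound 20.4%). The DSG2 region, in an intron of this desmosomal cadherin gene, is also the member counted for DSG3. It stood at 31.9 and 63.1 in the replicate 2 libraries. Of the 12 highest-ranked regions nearest to listed genes, EHF apart, none was called in a replicate 1 library, so their presence in one cell type or the other rests on single libraries.

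Members were spread over 1107 nearest genes, 1022 of them with 1 member each. Only DBX1, a homeobox gene, and DISC1, a scaffold gene of neurons, were nearest to 4, of 18 and 25 accessible regions. One of the 4 near DBX1 was called in all 4 libraries, at percentiles 90.8 and 85.1 in MCF10A and 68.0 and 91.3 in G12V. One of the 4 near DISC1 was lost, at 93.7 in MCF10A replicate 1 and 63.0 in replicate 2. Of 16 members with 2 or more sites that do not overlap, the 3 highest-ranked had 2 each. They were a region in an intron of BBX, an HMG-box gene, called in MCF10A replicate 2 alone at 72.7, and one at the promoter of MRPS15, a mitochondrial ribosomal protein gene, at 52.8 and 61.6 in MCF10A and 68.2 in G12V replicate 2. The third, far from CDH2, the N-cadherin gene, stood at 59.2 in MCF10A replicate 2 and 58.6 in G12V replicate 2.

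The epithelial identity of the libraries was only partly visible in promoter peaks. Of 10 markers of basal mammary epithelium, 3, 4, 0 and 3 had a promoter peak in MCF10A replicates 1 and 2 and G12V replicates 1 and 2, and KRT5, KRT14, KRT6A and TP63 had none in any library. Of 8 markers of other cell types, PTPRC alone had one, in G12V replicate 2.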

How the data were processed

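ATAC-seq peak lists of 4 libraries were used, 2 of MCF10A and 2 of G12V, grouped by their labelled genotype. Per the study's methods, the authors aligned reads with bowtie to hg19, shifted each read to the middle of the cut made by the transposase, and ran MACS to find peaks. The deposited column 5 is the authors' MACS score of each peak, from 40 upward, which depends on depth and was used only as a rank within its list. Scores and positions are given per library, without summits. The lists were merged and searched as described above, with hg19 (GRCh37) sequence and GENCODE 44 mapped to that build. Peaks on Y, 14 to 25 per list, were left out.

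Shares per library were compared by exact permutation tests. Rank-scaled scores were fitted with limma 3.58.1 in R 4.3.3, without a block, and adjusted by Benjamini-Hochberg over 5090 regions. The labels do not say that equal replicate numbers mark pairs, and the correlation of deviations between libraries of the same replicate number was 0.175. The regions and gene lists were chosen with earlier results of these data known, and the offset check, the moved window and the split by middle base were added after the data had been seen. Regions were named by rank: 6 called in all 4 libraries, 5 gained and 5 lost with the highest value of their lowest percentile, the 3 highest-ranked of those with most non-overlapping sites, 12 nearest to listed genes, and genes nearest to at least 4 members. ELF3, CLDN7, TJP3, DSG3 and DST are named as members of the lists, and some results of these lists are not reported here.

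Python 3.11.15, numpy 2.4.6, scipy 1.17.1, pandas 2.3.3, pysam 0.24.0 and matplotlib 3.10.9 were used. Merging, site search and the limma fit were tested on simulated data, where the fit with 2 libraries per cell type estimated shifts of the size seen here correctly but called none of them. Alternatives were other site definitions, windows, peak filters, merging rules, gene starts, scalings and left-out libraries.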

Additional observations from a re-analysis of the deposited data

How the results depend on the processing

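The difference in site share between the cell types, -0.230 points, stayed negative in all alternatives but the backwards site, where it was 0.0538, but it shrank to -0.121 with equal lists, -0.0986 in the better-scoring 50%, -0.0647 for the 8-base site, -0.0134 for the 8-base site in the moved window and -0.00946 with 0 mismatches. Leaving out each library in turn gave -0.302 to -0.175. With the replicate number as a replicate block it was unchanged at -0.230 with an exact permutation p = 0.5, the smallest possible, and the labels do not show that equal numbers mark pairs.

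The share of regions with a site was 0.105% with 0 mismatches, 0.581% for the 8-base site, 3.14% for the backwards site, 8.55% over whole regions, 0.619% for the 8-base site in the moved window, and 1.96% to 2.09% with a library left out, 2.09% without G12V replicate 2. The promoter share of members in these settings was 12.5%, 35.9%, 15.5%, 23.4%, 31.3% and 16.0% to 20.4%. It was 22.97% in the better-scoring 50%, 24.4% with equal lists and 19.1% with long non-coding gene starts, where that of all regions was 22.3%, 23.7% and 18.6%. The difference in promoter share, 0.633 points, had no stable sign. It was -2.94 for the 8-base site, -1.71 for the backwards site, -2.05 over whole regions, -0.767 in the moved window, -6.20 for the 8-base site there, and -6.14 to 6.98 with a library left out.

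Gained and lost members numbered 0 and 2 with 0 mismatches (0% and 0.153% of their classes) and 6 and 7 for the 8-base site (0.308% and 0.537%). For the 8-base site in the moved window they were 13 and 7 (0.666% and 0.537%), and for the backwards site 60 and 38 (3.08% and 2.92%). Over whole regions they were 173 and 123 (8.87% and 9.44%), and in the better-scoring 50% 19 and 14 (1.77% and 1.92%). With a library left out they numbered 36 to 419 and 41 to 257, since the classes then need fewer peaks. Those were 1.67% to 1.82% of gained and 2.29% to 3.01% of lost regions. Within the replicate 1 pair (replicate block) they were 140 and 146, or 1.74% and 2.12% of their classes, and within the replicate 2 pair 431 and 272, or 1.81% and 2.43%. Members called by limma were 0 in all settings, except 1 without G12V replicate 1, where 3 of all regions were called. With the replicate block 6 of all regions and 0 members were called. Causes were not tested. Peak lists without read counts, and lists that differ in length, limit every count of gained and lost regions.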

Other observations

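The E-box letters CACCTG were more frequent in lost than in gained regions as a whole. Of the 1303 lost regions 18.3% held them (16.3 to 20.5, Wilson), and of the 1951 gained regions 7.89% did (6.78 to 9.17), beside 11.4% of all regions. Against their own flanks the letters were more frequent in the centre of lost regions, with a ratio of 1.46 (1.28 to 1.66), and less frequent in the centre of gained regions, with a ratio of 0.595 (0.506 to 0.697). With equally long lists the shares were 14.9% and 6.36%, and in the moved window 18.7% and 8.76%.

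By library, CACCTG was in 12.7% of the regions called in MCF10A replicate 1, 11.9% in MCF10A replicate 2, 9.70% in G12V replicate 1 and 10.1% in G12V replicate 2. Both MCF10A libraries lay above both G12V libraries, also with equally long lists (12.8%, 11.1%, 9.69% and 9.03%). The means differed by -2.35 percentage points, G12V minus MCF10A, with an exact two-sided permutation p of 0.333, the smallest possible. The letters were looked at after the data had been seen.

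The 8-base palindrome AACCGGTT was counted here with at most 1 outer mismatch, and its exact letters were in only 28 of the 60886 regions. With that mismatch allowed, it was in 6 gained (0.308%) and 7 lost regions (0.537%) in the window at the midpoint, beside 0.581% of all regions. In the moved window it was in 13 gained (0.666%) and 7 lost regions (0.537%), beside 0.619% of all regions. Its ratio to the flanks was 0.909 (0.317 to 2.14) in gained and 1.56 (0.577 to 3.61) in lost regions at the midpoint, and 2.12 (1.07 to 3.94) and 1.78 (0.704 to 3.97) in the moved window, so the order of the classes depended on the window. The difference between the classes was not tested.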
